A study of Ovis aries with 6 samples.

Results

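The nuclei described here are keratinocyte nuclei of the sheep rumen that share transcripts of SAMD8, CRISP3, FBXO32 and 4 further genes, DUSP14, SOBP, MYZAP and SPOCK1. A nucleus was a member when at least 4 of these 7 genes had a UMI (a unique molecule counted once), at most 3 of the basal genes TP63, KRT15, SOX6, CDH13, FRAS1 and GRIP1 had one, and PTPRC, the pan-leukocyte gene, had 0. Only barcodes with 500 genes or more were kept, and only with 10% mitochondrial UMIs or less, which gave 40419 of 67553, and 4040 of the kept nuclei were members. The members were therefore chosen on measured values of these 14 genes, and levels of these genes in them are a description. The material was frozen ventral-sac rumen epithelium of 6 male lambs in a study of grazing and supplementary feeding. Nuclear RNA was counted in 10x Genomics droplets, with 1 library per animal. The lambs fell into the groups MGHS (3 lambs, 3040 members) and MGNS (3 lambs, 1000 members), names that the labels do not spell out, and the 3 sheep per group were a random pick. The label given to these nuclei is outermost keratinocytes, but position in the tissue was not measured, so they are called member nuclei here.

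The rumen lining is a stratified squamous epithelium. Its keratinocytes divide in the basal layer, where integrins and laminins hold them to the basement membrane, and then move outward, flatten and are shed from a horny surface. Outer cells lay down crosslinked proteins and lipids, close the space between cells with tight junctions and desmosomes, and release proteases and protease inhibitors that govern shedding, while deeper cells carry much of the monocarboxylate transport and ketone body synthesis for which this tissue is known.

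The 6 libraries held 34418856 to 59997793 UMIs and 4670 to 8674 kept nuclei each. Member nuclei numbered 976, 976 and 1088 in MGHS 1 to 3 and 156, 362 and 482 in MGNS 1 to 3, with medians of 7940 to 9491 UMIs in MGHS and 8600.5 to 10536.5 UMIs in MGNS. MGNS 2 stood apart in SLC26A3, among the members and in other nuclei. SLC26A3, a chloride and bicarbonate exchanger outside the rule, had a UMI in 45.9% of its member nuclei and in at least 89.1% of those of each other library. In MGNS 2 it also had one in 6.39% of other keratinocyte nuclei and 5.82% of nuclei with at least 3 PTPRC UMIs. The lowest shares of the other libraries, both in MGHS 2, were 29.2% and 21.6%. A doublet caller marked 353 of the 4040 members. Between 19 and 49 barcodes occurred in both libraries of a pair, and 1 member barcode was shared, between MGHS 2 and MGHS 3.

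Marker UMIs were also found in nuclei of other cell types, more often in MGHS than in MGNS. A nucleus of another type passed here when it had at least 4 of the 7 markers and at most 3 of the 6 basal genes. Of nuclei with at least 3 PTPRC UMIs, which should lack the 7 markers, 8.28 ± 2.19% in MGHS and 3.13 ± 0.907% in MGNS (SD, n = 3 each) passed, with no overlap between the groups (two-sided exact permutation p = 0.1). Fibroblast nuclei, defined by at least 4 of 10 fibroblast genes and few keratinocyte genes, passed in 7.41 ± 1.67% in MGHS and 3.02 ± 0.778% in MGNS (exact permutation p = 0.1). With each nucleus thinned to 2000 UMIs these shares were 6.58 ± 1.27% in MGHS and 2.27 ± 1.17% in MGNS for PTPRC nuclei, and 3.29 ± 0.158% in MGHS and 0.673 ± 0.774% in MGNS for fibroblast nuclei. Over the 6 libraries SOBP had a UMI in 15.4 to 27.65% of fibroblast nuclei and 1.41 to 9.29% of other keratinocyte nuclei. FBXO32 had one in 19.5 to 45.4% and 10.7 to 27.8% of these sets. Whether fibroblasts make these transcripts themselves was not tested. A design of 3 against 3 lambs allows no permutation p below 0.1. How much of any result below comes from free RNA was not tested. Results are also given for the member nuclei in which the 7 markers held at least 1% of UMIs, a limit chosen after seeing the data. Nuclei of the other types still passed with this limit. Of PTPRC nuclei 5.49, 4.30 and 2.89% passed in MGHS 1 to 3 and 0.996, 1.47 and 2.27% in MGNS 1 to 3. Of fibroblast nuclei 2.11, 2.57 and 1.83% passed in MGHS 1 to 3 and 0, 0 and 0.957% in MGNS 1 to 3.

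The marker genes cover several roles. SAMD8 belongs to the sphingomyelin synthase family. It had 14890, 15480 and 9739 CPM (its UMIs scaled to the summed UMIs of a library's member nuclei) in MGHS 1 to 3 and 15230, 3538 and 10420 CPM in MGNS 1 to 3, so MGNS 2 was lowest. The same gene averaged 4440 CPM in nuclei outside the rule with UMIs of SLC26A3 and TMPRSS11D, 330.3 CPM in nuclei with DSC1 and DSG1, 68.09 CPM in basal nuclei and 772.1 CPM in fibroblast nuclei. CRISP3, a cysteine-rich secretory protein, had 4666, 5623 and 4624 CPM in MGHS 1 to 3 and 4304, 3166 and 3790 CPM in MGNS 1 to 3, against a mean of 18.55 CPM in basal nuclei. FBXO32, the F-box subunit of a ubiquitin ligase and a known FOXO target, had 3186, 2635 and 746.2 CPM in MGHS 1 to 3 and 1293, 1269 and 1190 CPM in MGNS 1 to 3. MGHS 3 was lowest for FBXO32, and the groups overlapped for SAMD8 and FBXO32. For CRISP3 each MGHS library lay above each MGNS library on this scale, while the groups overlapped after TMM scaling.

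The other 4 markers also differed among animals. The dual-specificity phosphatase DUSP14 ranged from 3737 to 5532 CPM over the 6 libraries, and the junction protein MYZAP from 3226 to 8342 CPM. SOBP had 732.6, 1398 and 404.8 CPM in MGHS 1 to 3 and 202.8, 312.1 and 192.3 CPM in MGNS 1 to 3, and each MGHS library lay above each MGNS library. The proteoglycan SPOCK1 had 490.8, 603.6 and 359.9 CPM in MGHS 1 to 3 and 168.6, 33.63 and 601.3 CPM in MGNS 1 to 3, lowest in MGNS 2. SAMD8 was detected in 85.9 to 97.5% of a library's member nuclei, DUSP14 in 96.0 to 97.4% and MYZAP in 94.9 to 99.2%. SOBP was detected in 41.7 to 87.8% and SPOCK1 in 18.5 to 71.0%, so a member without one of these was common. SAMD8 was also detected in 26.5 to 54.5% of fibroblast nuclei, which had median depths of 3057 to 5006.5 UMIs against 7940 to 10536.5 UMIs in members. Detection alone therefore separated these sets less than the level did.

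**Figure D1:**
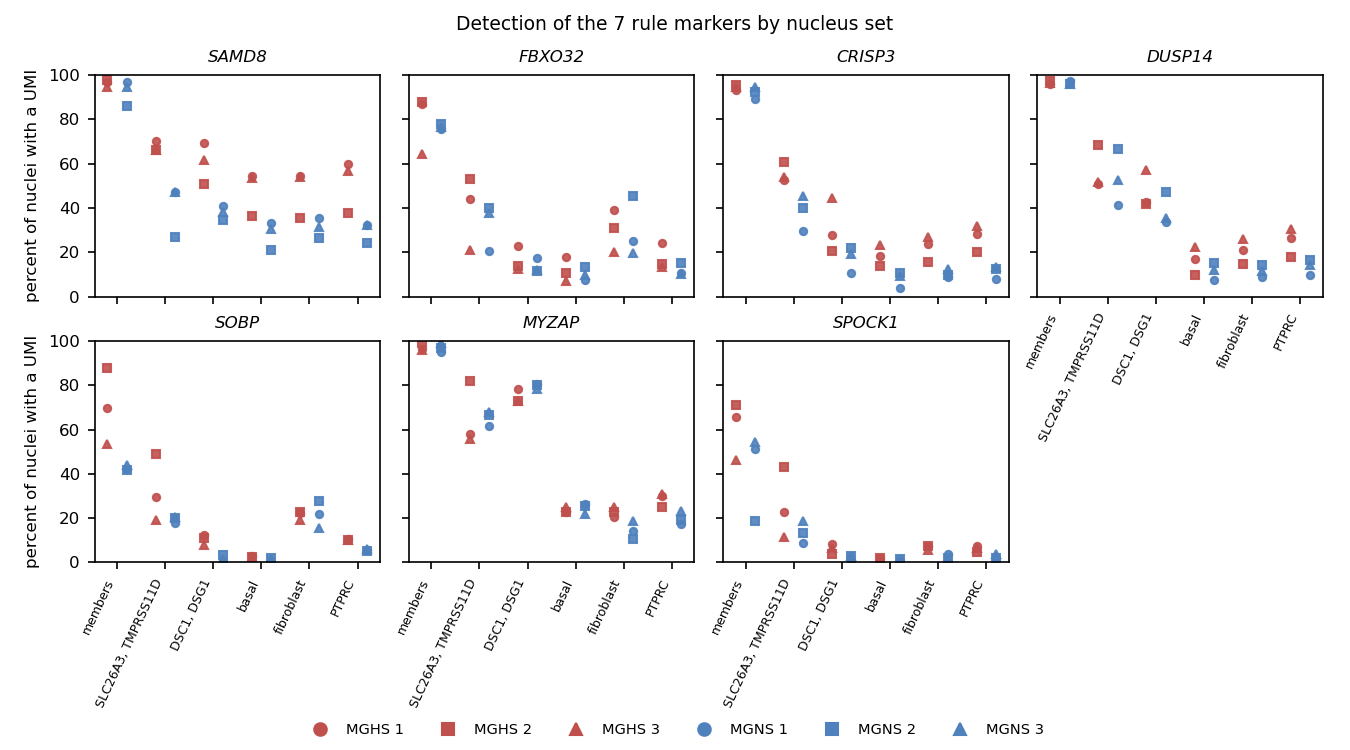
Percent of nuclei with at least 1 UMI (vertical axis) of each of the 7 marker genes, in member nuclei and 5 other sets of nuclei, with 1 point per animal and MGHS left of MGNS. SAMD8 was detected in 85.9 to 97.5% of member nuclei and in 26.5 to 54.5% of fibroblast nuclei.

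Nuclei just inside and just outside the threshold held far fewer marker transcripts than nuclei with all 7 markers. Nuclei with 3 markers, just outside, numbered 344, 248 and 591 in MGHS 1 to 3 and 91, 208 and 194 in MGNS 1 to 3, and the 7 markers held a median of 0.0839 to 0.0998% of their UMIs. Members with 4 markers numbered 166, 79 and 342 in MGHS 1 to 3 and 38, 119 and 110 in MGNS 1 to 3. Their median marker share was 0.128, 0.173 and 0.163% of UMIs in MGHS 1 to 3 and 0.346, 0.481 and 0.285% in MGNS 1 to 3, closer to the nuclei left out in MGHS than in MGNS. Members with all 7 numbered 505, 589 and 293 in MGHS 1 to 3 and 33, 31 and 119 in MGNS 1 to 3, with medians of 4.97 to 5.36% in MGHS and 3.47 to 5.36% in MGNS. The lower edge of the members thus held nuclei with few marker transcripts, more of them in MGHS 3 than in any other library. The rule left out 567 nuclei for more than 3 basal genes and 1624 for PTPRC.

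The label of keratinocyte held against genes the rule did not use, within limits. The keratinocyte identity genes, 10 in number, summed to 2154 to 2846 CPM in MGHS members and 2988 to 3328 CPM in MGNS members, against 2579 to 3984 CPM over the 6 libraries in other keratinocyte nuclei. At least 3 of these genes had a UMI in 2537 of the 4040 members, and other keratinocyte nuclei were defined by that same count. TMPRSS11D, a trypsin-like serine protease of stratified epithelia, was detected in 83.4 to 92.8% of members. TP63, the transcription factor of basal keratinocytes, had a UMI in 14.2 to 32.8% of members, where up to 3 such genes were allowed.

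Markers of other cell types were also found in the member sums. Fibroblast markers summed to 756 to 1728 CPM in MGHS members and 499 to 1102 CPM in MGNS members, and T or NK markers to 28.7 to 71.6 CPM in MGHS and 59.7 to 64.7 CPM in MGNS. Macrophage or dendritic markers gave 20.3 to 45.2 CPM in MGHS and 15.6 to 34.3 CPM in MGNS, B or plasma markers 170 to 229 CPM in MGHS and 130 to 235 CPM in MGNS, mostly EBF1, and glia markers 1.79 to 3.47 CPM in MGHS and 0.579 to 9.61 CPM in MGNS with SOX10 at 0. Melanocyte markers, mostly MITF and with TYRP1 at 0, gave 118 to 286 CPM in MGHS and 155 to 188 CPM in MGNS. Pericyte or smooth muscle markers gave 120 to 217 CPM in MGHS and 60.1 to 89.0 CPM in MGNS, without overlap. Fibroblast and B or plasma markers had ranges of 379 to 1038 CPM and 52.2 to 137 CPM in other keratinocyte nuclei, and 1134 to 2665 CPM and 392 to 1142 CPM over all kept nuclei. Endothelial markers reached 312 to 489 CPM in MGHS and 483 to 1117 CPM in MGNS, against 93.5 to 225 CPM in other keratinocyte nuclei and 422 to 629 CPM over all kept nuclei, mostly through the VEGF receptor gene FLT1, which averaged 438.5 CPM in members and 55.92 CPM in other keratinocyte nuclei. The neutrophil list gave 1901 to 7102 CPM in MGHS and 4020 to 5556 CPM in MGNS through S100A8 and S100A9, which keratinocytes also express, against 1555 to 6728 CPM in other keratinocyte nuclei and 1282 to 4941 CPM over all kept nuclei.

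The RNA of member nuclei was concentrated in fewer genes than that of other keratinocyte nuclei. At 2000 UMIs per nucleus a member nucleus held a median of 714 to 935 genes over the 6 libraries, against 1197 to 1324 in other keratinocyte nuclei and 1226 to 1328.5 in basal nuclei. The 50 leading genes took 19.2 to 31.6% of UMIs in members and 9.88 to 17.1% in other keratinocytes. Cytosolic ribosomal protein genes took 1.64 to 4.93% in members and 6.81 to 16.1% in other keratinocytes, and lncRNAs took 6.25 to 12.1% in members and 3.11 to 3.94% in other keratinocytes. For these 4 measures no library of the members overlapped the other keratinocytes. Against narrower sets some did. The SLC26A3 and TMPRSS11D nuclei of MGNS 1, only 34 in number, had 23.6% of UMIs in the 50 leading genes and 10.2% in lncRNAs. The DSC1 and DSG1 nuclei of MGNS 2 had 3.62% in ribosomal protein genes. Between the groups the members did overlap, with 812 ± 113 genes at 2000 UMIs in MGHS and 874 ± 65.7 in MGNS, and lncRNA shares of 9.61 ± 2.13% in MGHS and 7.43 ± 1.05% in MGNS (SD, n = 3 each).

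**Figure D2:**
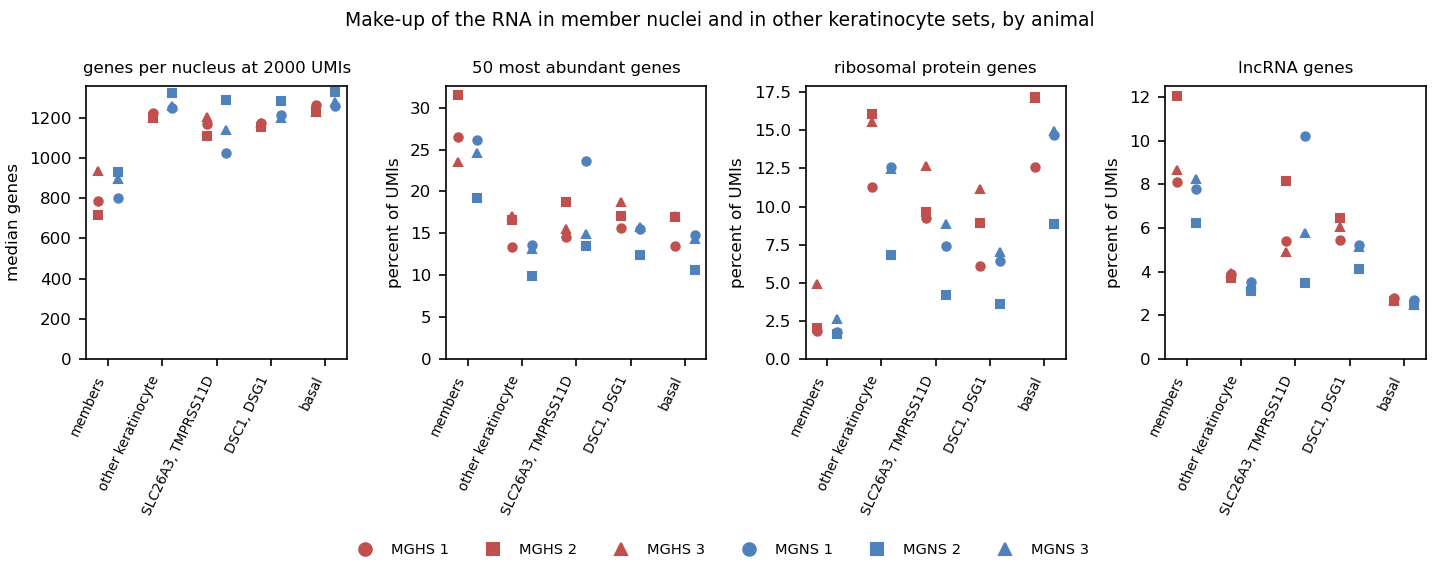
Median genes per nucleus at 2000 UMIs, percent of UMIs in the 50 leading genes, percent in ribosomal protein genes and percent in lncRNAs (vertical axes), with 1 point per animal, in member nuclei and 4 other keratinocyte sets, MGHS left of MGNS. Member nuclei had 714 to 935 genes at 2000 UMIs and other keratinocyte nuclei 1197 to 1324.

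Levels in members were set beside those in other keratinocyte nuclei library by library, as log2 ratios of CPM + 10. This contrast follows from the rule and carries no test. Of 8695 genes with at least 10 CPM as the mean over both sets, 553 had a log2 ratio over 1 in all 6 libraries, which is 6.36%, and 1795 had one under -1, which is 20.6%. The median log2 ratio of all counted genes was -0.79, against which each ratio is to be read. Counts of higher and lower genes in every list below are to be read beside 6.36% and 20.6%. Under the limit of 1% marker UMIs the higher count was 610.

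The genes that led the higher side included several of known surface biology. P2RY2, a receptor for extracellular nucleotides, averaged 561 CPM in members and 24.1 CPM in other keratinocytes, with log2 ratios of 3.60 to 4.82. HOPX, an atypical homeodomain protein of late differentiation, averaged 823.9 CPM in members and 43.5 CPM in other keratinocytes (3.54 to 4.55). PADI1, which converts arginine to citrulline in epidermal proteins, averaged 1231 CPM in members and 67.8 CPM in other keratinocytes (3.47 to 5.08). These ratios held in every animal, and all 3 genes lay lower in the SLC26A3 and TMPRSS11D nuclei, at means of 217.9, 263.3 and 451.6 CPM, and lower again in DSC1 and DSG1 nuclei, at 30.58, 61.25 and 139 CPM. DHRS9, a retinol dehydrogenase, averaged 730.8 CPM in members and 28.5 CPM in other keratinocytes, and SPNS2, an exporter of sphingosine 1-phosphate, 789.3 CPM in members and 45.9 CPM in other keratinocytes. ADA, the adenosine deaminase, averaged 650.3 CPM in members and 30.1 CPM in other keratinocytes, and was lowest in MGNS 2 with 162.7 CPM. CEMIP, which takes part in hyaluronan breakdown, averaged 2709 CPM in members and 164.9 CPM in other keratinocytes, and DYNAP 3167 CPM in members and 189.1 CPM in other keratinocytes. A2M, a secreted protease trap, averaged 5572 CPM in members and 494.9 CPM in other keratinocytes, but also 2522 CPM in fibroblast nuclei. The remaining genes of the leading 20 were FAM107B, BNIP3L, FRMPD1, ST3GAL6, GPAT3, DOCK4, AIF1L, CNST, ATOSA, TMPRSS11D and TGFA.

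At the low end stood genes of the basal side. NRG1, a ligand of ERBB receptors, averaged 48.9 CPM in members and 1094 CPM in other keratinocytes, with log2 ratios of -6.01 to -3.52. SLC16A1, the monocarboxylate transporter MCT1, averaged 25.2 CPM in members and 612.5 CPM in other keratinocytes (-4.86 to -3.42). LAMA3, a chain of laminin 332, averaged 15.0 CPM in members and 314.9 CPM in other keratinocytes, and CA12, a membrane carbonic anhydrase, 9.70 CPM in members and 276.9 CPM in other keratinocytes. Each of these genes was lower in members in all 6 libraries. SELENBP1, HSD17B2, IQGAP2, PLA2R1, TMT1A and PCDH7 completed the lowest 10.

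Of the cornified envelope genes, which make the protein shell of outer keratinocytes, 4 of 17 counted were higher in all 6 libraries and 0 were lower, with a median log2 ratio of 1.12. They were HOPX, PADI1, CSTA and IVL. Among all counted genes 6.36% were higher and 20.6% lower. IVL, the envelope protein involucrin, averaged 202.7 CPM in members, 180.8 CPM in SLC26A3 and TMPRSS11D nuclei, 221.5 CPM in DSC1 and DSG1 nuclei and 15.19 CPM in basal nuclei. The transglutaminase TGM3 averaged 1279 CPM in members and 1673 CPM in DSC1 and DSG1 nuclei. LORICRIN, the main envelope protein of skin, had 0 UMIs in the members of all 6 libraries. The members had IVL and TGM3 in common with the DSC1 and DSG1 nuclei, while HOPX and PADI1 had lower means there.

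Proteases and their inhibitors were the list with the largest median log2 ratio, 1.55, of the function lists described here, with 12 of 22 counted members higher and 1, SERPINB5, lower. SPINK5, the kallikrein inhibitor of the outer epidermis, had 5272 to 8414 CPM in members over the 6 libraries, against means of 2874 CPM in SLC26A3 and TMPRSS11D nuclei, 2569 CPM in DSC1 and DSG1 nuclei and 193.1 CPM in basal nuclei. TMPRSS11D averaged 1982 CPM in members and 20.48 CPM in basal nuclei. The others were PRSS22, PRSS27, SPOCK1, CSTA, A2ML1, SERPINB7, SERPINB2, KLK12, PRSS8 and SERPINB12, of which SPOCK1 belongs to the rule.

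More lipid barrier genes were higher than lower. Of 28 counted, 9 were higher, SAMD8 of the rule among them, and 2, CERS5 and SPTLC3, were lower. Over all counted genes 6.36% were higher and 20.6% lower. The median log2 ratio of the list was -0.02, beside -0.79 for all counted genes. SPTLC2, a subunit of the first enzyme of sphingolipid synthesis, averaged 1543 CPM in members, 740.2 CPM in DSC1 and DSG1 nuclei and 147.4 CPM in basal nuclei. ACER1, an alkaline ceramidase of the epidermis, averaged 114.4 CPM in members and 19.9 CPM in other keratinocytes, and ALOXE3, an epidermal lipoxygenase, 38.7 CPM in members and 1.86 CPM in other keratinocytes. ABCA12, the lipid transporter of lamellar granules, was higher too but spread from 38.92 to 780.2 CPM among the animals. The remaining higher genes were LIPK, GBA2, FA2H and SULT2B1.

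Junction genes differed by kind, with counts to be read beside 6.36% higher and 20.6% lower over all counted genes. Tight junction genes were higher for 8 of 20 counted and lower for CXADR alone, with a median log2 ratio of 0.43. CLDN17, a claudin that forms anion pores, averaged 150.7 CPM in members and 7.11 CPM in other keratinocytes, and CLDN4, a sealing claudin, 434.5 CPM in members and 87.1 CPM in other keratinocytes. Desmosome and adherens genes were higher for 3 of 25, MYZAP of the rule among them, and lower for 3, with a median of -0.55. The desmocollin DSC2 stayed within 1119 to 1194 CPM in members over the 6 libraries, against a mean of 2418 CPM in DSC1 and DSG1 nuclei. DSG1 averaged 97.41 CPM in members, against 335.1 CPM in DSC1 and DSG1 nuclei, which were picked for it. Hemidesmosome and basement membrane genes, the anchors of basal cells, were higher for 0 of 17 and lower for 12, with a median of -1.94, and LAMA3, COL17A1, ITGB4 and ITGA6 were among the 12, as was FRAS1, which the rule limited.

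Keratins separated members from basal nuclei in both directions. KRT78, a keratin of differentiated epithelium, averaged 2750 CPM in members, 1234 CPM in SLC26A3 and TMPRSS11D nuclei, 527.4 CPM in DSC1 and DSG1 nuclei and 64.67 CPM in basal nuclei. KRT23 and KRT80 were the other 2 higher keratins of 12 counted, at 624.6 and 353.6 CPM in members and 29.3 and 27.9 CPM in other keratinocytes. KRT5, the basal keratin, averaged 45.85 CPM in members and 1084 CPM in basal nuclei, and KRT14, its partner, 117.9 CPM in members and 483.3 CPM in basal nuclei. KRT15 of the rule, KRT19 and KRT79 completed the 5 lower ones. KRT36 was highest neither in members, at 1208 CPM, nor in basal nuclei, at 464.1 CPM, but in DSC1 and DSG1 nuclei, at 2707 CPM.

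**Figure D3:**
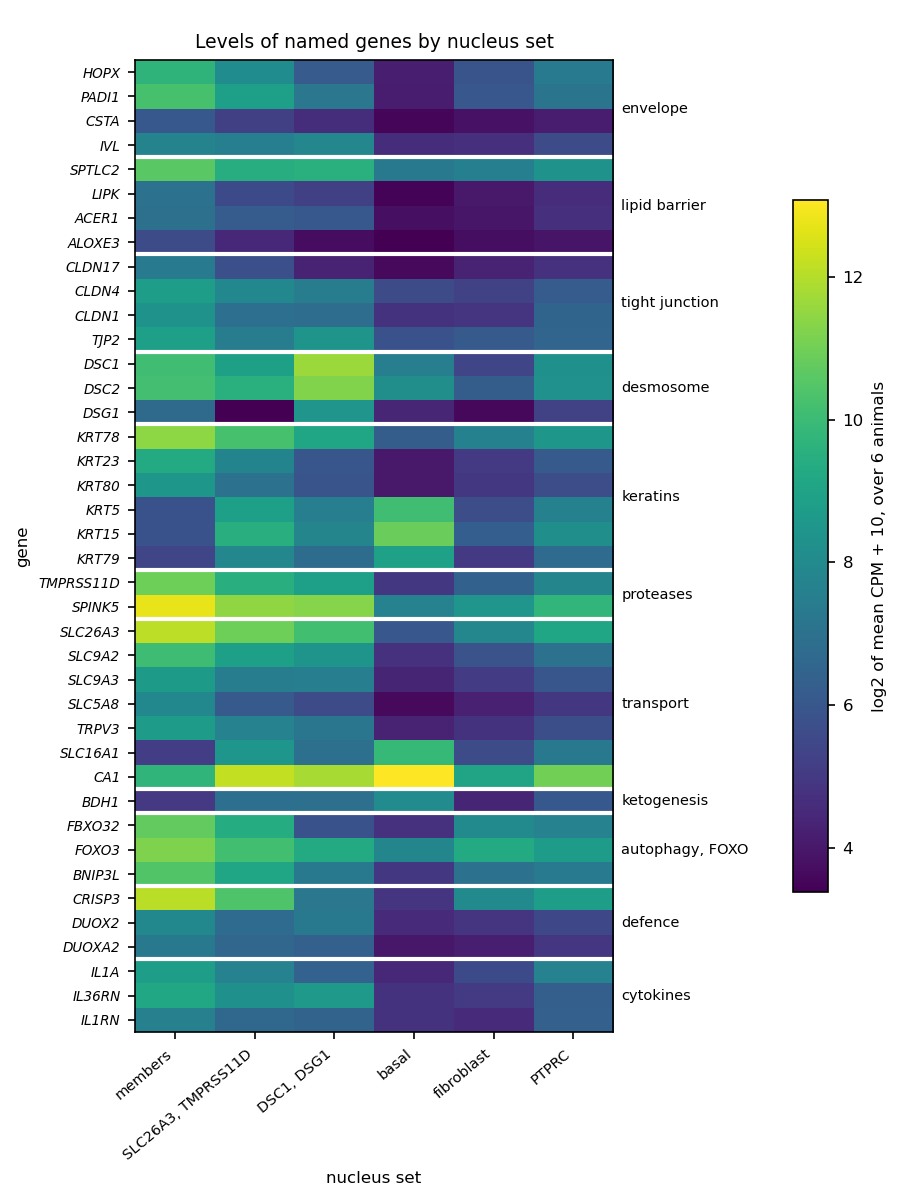
Heat map of levels as log2 of the mean CPM over 6 animals plus 10 (colour), for 40 genes in groups by role (vertical axis) and 6 sets of nuclei (horizontal axis). KRT78 averaged 2750 CPM in members and 64.67 CPM in basal nuclei, and KRT5 45.85 CPM in members and 1084 CPM in basal nuclei.

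Transport genes for acid and bicarbonate lay on both sides. SLC26A3 averaged 4398 CPM in members, 1968 CPM in SLC26A3 and TMPRSS11D nuclei, which were picked for it, and 1111 CPM in DSC1 and DSG1 nuclei. It had 6667, 3470 and 4363 CPM in MGHS 1 to 3 and 6306, 647.9 and 4933 CPM in MGNS 1 to 3. MGNS 2 lay far below the other 5 animals, which overlapped. The sodium/proton exchangers SLC9A2 and SLC9A3 averaged 1059 and 398.6 CPM in members, against 17.22 and 10.7 CPM in basal nuclei. SLC5A8, a sodium-coupled carrier of short-chain fatty acids, averaged 230.7 CPM in members and 2.33 CPM in basal nuclei. Lower than in other keratinocytes were SLC16A1, CA12, CA1, ABCC3, SLC16A9 and SLCO2A1, so 4 of 16 counted were higher and 6 lower. The shares over all counted genes were 6.36% higher and 20.6% lower. CA1, a cytosolic carbonic anhydrase, averaged 846.2 CPM in members and 8726 CPM in basal nuclei.

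Among channels, 3 of 23 counted were higher and 5 lower, beside 6.36% higher and 20.6% lower over all counted genes. TRPV3, a cation channel of keratinocytes, known from cattle rumen to conduct ammonium, averaged 408.9 CPM in members, 135.3 CPM in DSC1 and DSG1 nuclei and 10.41 CPM in basal nuclei. The urea transporter SLC14A1 had 2049, 1853 and 904.9 CPM in MGHS 1 to 3 and 1720, 153.6 and 1384 CPM in MGNS 1 to 3, lowest again in MGNS 2. The water channel AQP5 averaged 84.63 CPM in members. ATP1B3, a subunit of the sodium pump, was among the 5 lower genes.

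Fuel and growth genes were low in members. Ketogenesis and ketone use had 0 of 20 counted genes higher and 13 lower, with a median log2 ratio of -1.96. BDH1, a ketone body dehydrogenase, averaged 21.42 CPM in members and 254.6 CPM in basal nuclei. Nuclear genes of oxidative phosphorylation were lower for 36 of 37 (median -2.20), ribosomal proteins for 69 of 69 (-2.37) and glycolytic genes for 13 of 21 (-1.75), with PFKFB4 the 1 glycolytic gene that was higher. Antioxidant genes were lower for 18 of 45 and higher for 0. Mitotic genes of G2/M were lower for 12 of 20 and higher for 0. Beside these counts stand 6.36% higher and 20.6% lower over all counted genes.

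Signalling genes gave a mixed picture, with counts to be read beside 6.36% higher and 20.6% lower over all counted genes. The EGF receptor ligands TGFA, EREG and AREG were higher, at means of 1031, 168.3 and 135.2 CPM in members and 87.8, 18.0 and 16.8 CPM in other keratinocytes, while EGFR itself was lower, at 201.8 CPM in members and 700.7 CPM in other keratinocytes. Among cytokine and NF-kB genes 8 of 38 counted were higher, IL1A, IL22RA1, IRAK2, IL1RN, IL36RN, NFKBIZ, IL36A and NFKBIA, and 3 were lower. IL1A, an alarmin of epithelia, ranged from 125.7 to 170.8 CPM in MGHS members and from 222.3 to 1050 CPM in MGNS members. Of the FOXO and autophagy genes 7 of 40 were higher, FBXO32 of the rule among them, with FOXO3 at 2368 CPM in members and 370.6 CPM in other keratinocytes, and BNIP3L, a receptor for the removal of mitochondria, at 1380 CPM in members and 83.7 CPM in other keratinocytes. Of MAP kinase phosphatases and feedback genes 7 of 20 were higher, among them DUSP14 of the rule, DUSP4, DUSP16 and DUSP1. Mucosal defence genes were higher for 4 of 13, CRISP3 of the rule, the hydrogen peroxide producing oxidase DUOX2 with its maturation factor DUOXA2, and MUC15.

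Transcription factors lay on both sides as well. PRDM1, a transcriptional repressor of late epidermal differentiation, averaged 672 CPM in members, 283.6 CPM in DSC1 and DSG1 nuclei and 22.63 CPM in basal nuclei. ELF5 and EHF, ETS factors of epithelia, averaged 203.8 and 949 CPM in members and 37.6 and 285.9 CPM in other keratinocytes. WWTR1, TEAD1, MAFF, ELF3 and ELK3 completed the 9 higher of 57 counted, with HOPX, and 13 were lower. These counts are to be read beside 6.36% higher and 20.6% lower over all counted genes. The median log2 ratio of the list was -0.55, beside -0.79 for all counted genes. Of the 13 lower factors, which include TP63 and SOX6 of the rule, PPARG averaged 63.1 CPM in members and 748.7 CPM in other keratinocytes.

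The first question between the groups was how many nuclei were members. They made up 17.2% (95% Wilson interval 16.2 to 18.2%), 15.4% (14.5 to 16.3%) and 12.5% (11.9 to 13.3%) of kept nuclei in MGHS 1 to 3. In MGNS 1 to 3 they made up 3.34% (2.86 to 3.90%), 4.58% (4.14 to 5.06%) and 6.76% (6.20 to 7.36%). These intervals cover counting error only. Each MGHS animal lay above each MGNS animal, with means of 15.0 ± 2.33% in MGHS and 4.89 ± 1.73% in MGNS (SD, n = 3 each), a ratio of 3.07 and a difference of 10.1 percentage points. The two-sided exact permutation p was 0.1, the smallest this design allows, so the difference did not pass at 0.05.

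The share was counted in several other ways, each with no overlap between the groups and an exact permutation p of 0.1. With markers at 1% of UMIs or more it was 10.7 ± 3.11% in MGHS and 3.33 ± 1.25% in MGNS, a ratio of 3.20. With every nucleus thinned to 2000 UMIs it was 15.7 ± 3.40% in MGHS and 5.33 ± 2.50% in MGNS. Leukocyte nuclei, with at least 3 PTPRC UMIs, numbered 1657, 1534 and 1940 in MGHS 1 to 3 and 2410, 3955 and 2467 in MGNS 1 to 3, so the whole to which members were set differed. Of nuclei without PTPRC the members made up 23.5 ± 4.65% in MGHS and 11.5 ± 2.15% in MGNS, a ratio of 2.03, and of keratinocyte nuclei 37.8 ± 7.41% in MGHS and 19.8 ± 4.27% in MGNS, a ratio of 1.91. The ratio thus depended on the denominator more than on the markers or the depth. The share of leukocyte and fibroblast nuclei that passed the limits on markers and basal genes was higher in MGHS as well, with and without the limit of 1% marker UMIs, as given above. Shares are also parts of a whole.

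**Figure D4:**
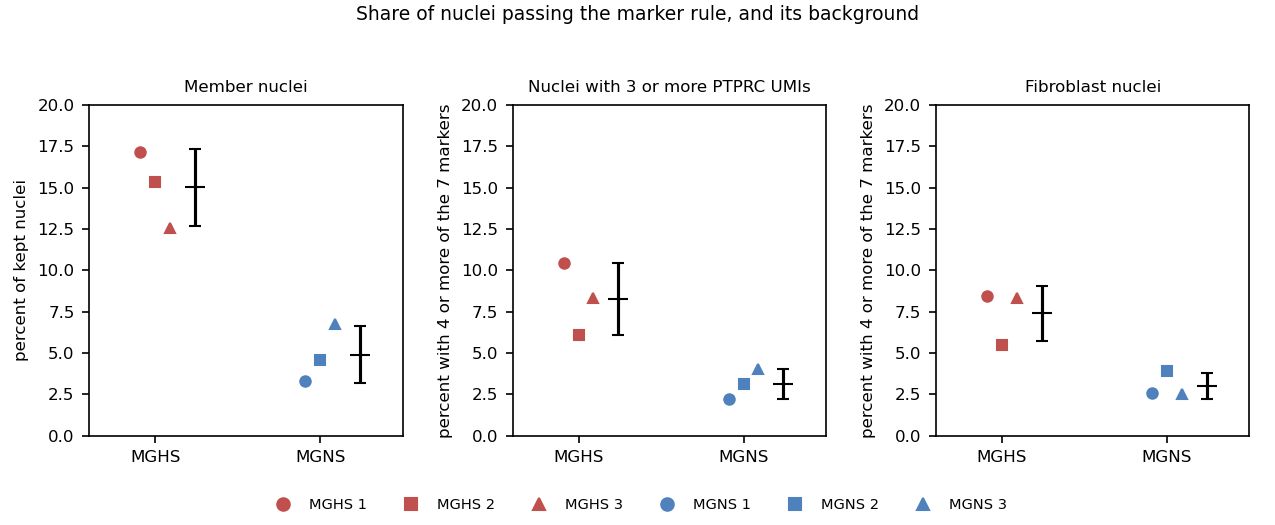
Percent of nuclei (vertical axis, 0 to 20%) that were members among kept nuclei, and that had at least 4 of the 7 markers and at most 3 of the 6 basal genes among PTPRC nuclei and among fibroblast nuclei, with 1 point per animal, bars at the mean ± SD and MGHS left of MGNS. Member shares were 12.5 to 17.2% in MGHS and 3.34 to 6.76% in MGNS, and PTPRC nuclei passed in 8.28 ± 2.19% in MGHS and 3.13 ± 0.907% in MGNS.

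The next question was which transcripts differed between MGHS and MGNS within the member nuclei. UMIs were summed per animal over members and compared by edgeR's quasi-likelihood test with Benjamini-Hochberg adjustment over 12750 genes. None passed, a percentage called of 0, with 1591 genes at an unadjusted p under 0.05. limma-voom called 0 as well (1433 at an unadjusted p under 0.05), while DESeq2 called 325 of 10854, or 2.99%, 121 higher and 204 lower. The ranges of the groups were separate for 2313 genes, or 18.1%, with MGHS above in 9.46% and below in 8.68%. The values below are given as not passed unless stated, on the scale of CPM after TMM scaling (TMM CPM), with log2 fold changes of MGHS over MGNS ± SE.

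TMPRSS2, a transmembrane serine protease, had the smallest p. It had 0.539, 0.625 and 0.0871 TMM CPM in MGHS 1 to 3 and 40.9, 39.3 and 20.1 TMM CPM in MGNS 1 to 3, a log2 fold change of -6.36 ± 0.62 (edgeR adjusted p = 0.0632). The MGHS libraries were near 0 and the groups lay far apart. With the markers at 1% of UMIs or more TMPRSS2 passed (-6.60, edgeR adjusted p = 0.0436), and it passed in 6 of 20 alternatives. Over these 20, which took in edgeR, limma-voom and DESeq2 fits, the adjusted p ran from 8.90e-18, the DESeq2 value, to 0.338. In the edgeR fit with markers at 1% of UMIs or more 5 of 9973 genes passed, or 0.0501%, all lower in MGHS. The other 4 were ATP1B1, KIAA0825, TMEM45B and LOC101122983, and the 4 passed in 4, 4, 3 and 4 of 20 alternatives.

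ATP1B1, a beta subunit of the sodium pump, had 11.8, 19.2 and 10.6 TMM CPM in MGHS 1 to 3 and 91.7, 76.7 and 111 TMM CPM in MGNS 1 to 3, a log2 fold change of -2.75 ± 0.34 (edgeR adjusted p = 0.171). Each MGHS value lay well below each MGNS value. KIAA0825 had 31.8, 45.6 and 35.2 TMM CPM in MGHS 1 to 3 and 216, 145 and 261 TMM CPM in MGNS 1 to 3. TMEM45B, a transmembrane protein gene, had 68.9, 60.0 and 81.5 TMM CPM in MGHS 1 to 3 and 247, 309 and 278 TMM CPM in MGNS 1 to 3. Each MGHS value of both genes lay below each MGNS value. SLC28A3, a concentrative nucleoside transporter, had 44.2, 42.8 and 22.2 TMM CPM in MGHS 1 to 3 and 223, 196 and 327 TMM CPM in MGNS 1 to 3 (-2.77 ± 0.39, edgeR adjusted p = 0.171). In basal nuclei its log2 fold change was -2.62 ± 0.32 (edgeR adjusted p = 0.0660). PROM1, a protein of membrane protrusions, had 9.93, 2.81 and 9.75 TMM CPM in MGHS 1 to 3 and 91.1, 68.0 and 139 TMM CPM in MGNS 1 to 3. SLC5A1, the sodium-glucose cotransporter SGLT1, had 8.96, 7.50 and 21.9 TMM CPM in MGHS 1 to 3 and 106, 301 and 86.9 TMM CPM in MGNS 1 to 3. For both, every MGHS animal lay below every MGNS animal. In basal nuclei the log2 fold changes were -2.66 for PROM1 and -2.95 for SLC5A1, but -0.28 for KIAA0825 and -0.54 for TMEM45B. CFAP61, CARMIL1, ZNF821 and RNF145 followed by p, with log2 fold changes of -2.85 to -1.53.

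On the higher side, none of the 12 genes of smallest p passed with edgeR either (adjusted p = 0.187 to 0.198). SOD3, the extracellular superoxide dismutase, had 43.0, 81.5 and 34.4 TMM CPM in MGHS 1 to 3 and 2.31, 8.04 and 8.85 TMM CPM in MGNS 1 to 3, a log2 fold change of 2.97 ± 0.52. GPX4, the selenoenzyme that reduces lipid peroxides, had 39.3, 39.4 and 57.1 TMM CPM in MGHS 1 to 3 and 12.7, 4.59 and 11.7 TMM CPM in MGNS 1 to 3 (2.25 ± 0.42). SELENOW, selenoprotein W, had 15.1, 12.2 and 29.8 TMM CPM in MGHS 1 to 3 and 2.88, 4.82 and 4.87 TMM CPM in MGNS 1 to 3 (2.14 ± 0.44). In basal nuclei, where 2 of 14130 genes passed, or 0.0142%, SELENOW was one of them (1.76 ± 0.18, edgeR adjusted p = 0.0472), and its interaction between the sets was 0.29 ± 0.37 (edgeR adjusted p = 0.917). These 3 antioxidant genes did not overlap between the groups. OTOP3, a proton channel gene, had 36.7, 24.8 and 13.9 TMM CPM in MGHS 1 to 3 and 5.19, 3.68 and 1.55 TMM CPM in MGNS 1 to 3. MAOA, monoamine oxidase A, had 20.2, 27.6 and 31.9 TMM CPM in MGHS 1 to 3 and 4.04, 5.74 and 9.07 TMM CPM in MGNS 1 to 3. SLC13A1, a sulfate transporter, had 5.18, 11.2 and 5.14 TMM CPM in MGHS 1 to 3 and 1.15, 0.460 and 0.442 TMM CPM in MGNS 1 to 3. These levels were low but separate. ADGRG2, TMEM200A, MFSD12, CHRDL1, THSD7A and GPC3 completed the 12, with log2 fold changes of 1.78 to 4.37.

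**Figure D5:**
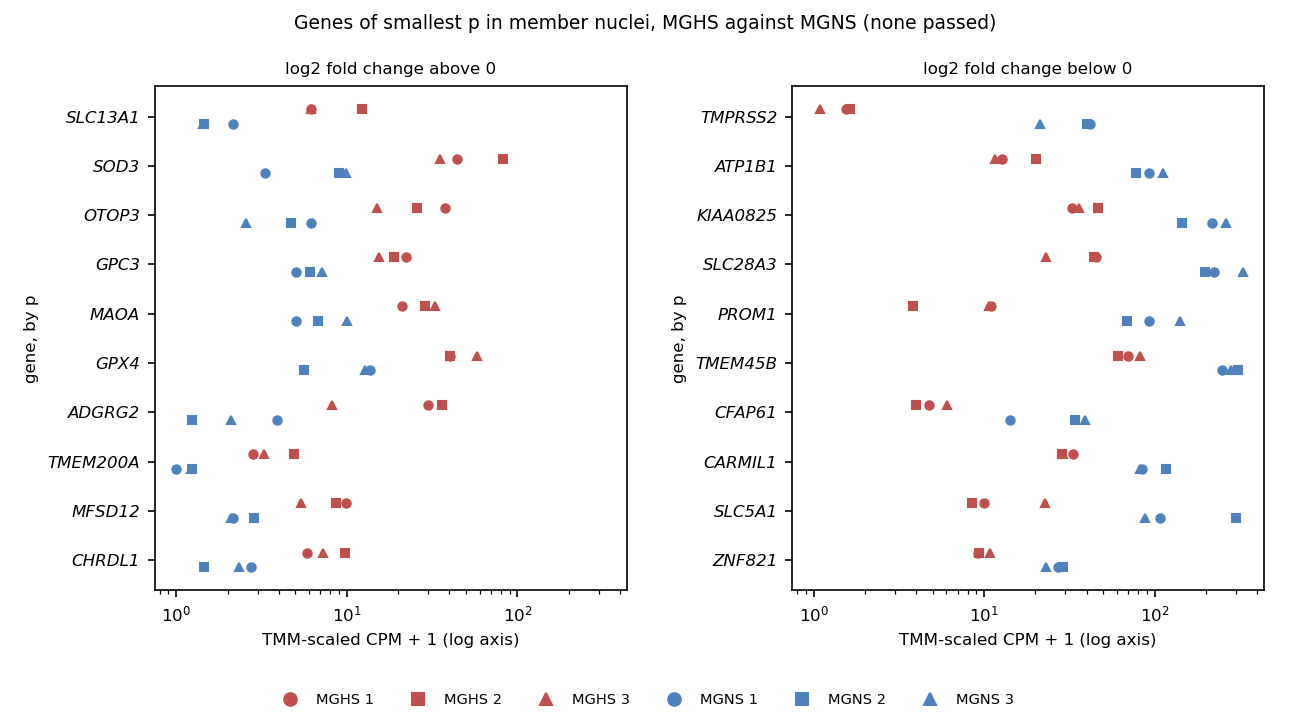
TMM-scaled CPM plus 1 on a log axis (horizontal) in each animal's member nuclei, for the 10 genes of smallest p with MGHS above MGNS and the 10 with MGHS below, with MGHS and MGNS in separate colours. None passed with edgeR, and TMPRSS2 had 0.0871 to 0.625 TMM CPM in MGHS and 20.1 to 40.9 TMM CPM in MGNS.

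Among the rule genes, SOBP, KRT15 and GRIP1 did not overlap, with MGHS above. KRT15 had 48.4, 75.1 and 93.0 TMM CPM in MGHS 1 to 3 and 15.0, 12.4 and 34.5 TMM CPM in MGNS 1 to 3, and GRIP1 136, 20.2 and 28.3 TMM CPM in MGHS 1 to 3 and 8.65, 13.1 and 4.65 TMM CPM in MGNS 1 to 3. The other rule genes overlapped. Since nuclei were picked on them, no test is given.

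By function, no member of any list passed in this comparison, and lists are described by their members and median log2 fold change beside 0.05 for all genes tested. Counts without overlap in every list are to be read beside 9.46% of all genes tested with MGHS above and 8.68% below. Keratins had MGHS above MGNS without overlap for 7 of 12 tested and below for 0, with a median of 1.00, and 0.83 to 1.26 when each animal was left out in turn. KRT13, a keratin of mucosal epithelium, had 164, 490 and 396 TMM CPM in MGHS 1 to 3 and 38.6, 93.5 and 65.7 TMM CPM in MGNS 1 to 3 (2.40 ± 0.50, edgeR adjusted p = 0.198). KRT36 had 1283, 1580 and 2146 TMM CPM in MGHS 1 to 3 and 732, 674 and 750 TMM CPM in MGNS 1 to 3. Both genes were separate between the groups, as were KRT5 and KRT19 with log2 fold changes of 1.73 and 2.36. In basal nuclei the log2 fold changes were 1.54 for KRT13, 1.53 for KRT36, 0.46 for KRT5 and 0.65 for KRT19. Keratins that the members share with deeper layers were thus among those with higher values.

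Cytokine and NF-kB genes ran the other way. Of 45 tested, MGHS lay below MGNS without overlap for 15 and above for 0, and 38 had a negative log2 fold change. The median was -0.68, between -0.95 and -0.68 with each animal left out and -1.05 with markers at 1% of UMIs or more. NFKB1, the p105 and p50 subunit, had 355, 210 and 141 TMM CPM in MGHS 1 to 3 and 1105, 527 and 1588 TMM CPM in MGNS 1 to 3 (-2.19 ± 0.52, edgeR adjusted p = 0.216). TNFAIP3, the NF-kB inhibitor A20, had 11.7, 12.3 and 5.40 TMM CPM in MGHS 1 to 3 and 34.6, 28.7 and 61.7 TMM CPM in MGNS 1 to 3 (-2.10 ± 0.44, edgeR adjusted p = 0.198). Subunits and inhibitor alike were lower in each MGHS animal. In basal nuclei the log2 fold changes were -1.41 ± 0.17 for NFKB1 (edgeR adjusted p = 0.0660), -1.17 for TNFAIP3, -1.50 for RELB and -0.32 for REL. REL had 41.3, 59.2 and 56.4 TMM CPM in MGHS 1 to 3 and 269, 111 and 146 TMM CPM in MGNS 1 to 3, and RELB had a log2 fold change of -1.78. T or NK markers, some of which are cytokine receptors, had a median of -0.62 over 8 tested in the same sums, and their part in the result was not tested.

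The barrier lists gave smaller and less stable medians. Tight junction genes lay below without overlap for 5 of 22 and above for 0, with a median of -0.51 that was -0.02 without MGNS 2. Desmosome and adherens genes lay below for 6 of 27 and above for 1, with a median of -0.35 that was 0.01 without MGNS 2 and -0.63 with markers at 1% of UMIs or more. CDH1, E-cadherin, had 110, 70.1 and 102 TMM CPM in MGHS 1 to 3 and 212, 378 and 272 TMM CPM in MGNS 1 to 3 (-1.61 ± 0.35, edgeR adjusted p = 0.198). The plakophilin PKP2 had 8.20, 5.16 and 8.79 TMM CPM in MGHS 1 to 3 and 35.7, 21.1 and 24.3 TMM CPM in MGNS 1 to 3. Neither gene overlapped between the groups. Cornified envelope genes had a median of -0.16 over 19, which ran from -0.62 to 0.23 with an animal left out. TGM3 had 441, 272 and 780 TMM CPM in MGHS 1 to 3 and 2346, 1347 and 2222 TMM CPM in MGNS 1 to 3 (-1.99 ± 0.48, edgeR adjusted p = 0.216), and TGM1 166, 139 and 223 TMM CPM in MGHS 1 to 3 and 456, 446 and 371 TMM CPM in MGNS 1 to 3. Both transglutaminases, which crosslink the envelope, were lower in each MGHS animal, whereas HOPX had a log2 fold change of 1.09. Lipid barrier genes had a median of -0.12 over 39 and proteases and inhibitors 0.15 over 29, the second -0.12 with markers at 1% of UMIs or more. Mucosal defence genes were negative for 13 of 14, with a median of -0.54 and MGHS below without overlap for 3. MUC20, a membrane mucin, had 5.93, 9.37 and 1.74 TMM CPM in MGHS 1 to 3 and 15.6, 72.1 and 43.8 TMM CPM in MGNS 1 to 3.

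Of the lists that were low in members, ribosomal, oxidative phosphorylation, antioxidant, ketogenesis, hemidesmosome and G2/M genes had positive medians in this comparison. Ribosomal proteins were positive for 68 of 69 with a median of 0.58, but their groups overlapped in every case, and the median was 0.26 without MGHS 3 and 0.34 with markers at 1% of UMIs or more. Oxidative phosphorylation genes were positive for 37 of 37, with MGHS above for 9 and a median of 0.62, or 0.28 without MGHS 3. Antioxidant genes had MGHS above for 10 of 50 and below for 2, with a median of 0.61, or 0.27 without MGHS 3. The cystine transporter SLC7A11 was an exception with a log2 fold change of -3.40. Ketogenesis genes had MGHS above for 4 of 22 and below for 0, with a median of 0.52, or 0.19 without MGHS 3, and hemidesmosome genes had MGHS above for 4 of 16 and below for 0, with a median of 0.57. Mitotic genes of G2/M were positive for 15 of 19, with MGHS above for 3 and below for 0. Their median was 0.56, or 0.11 with at most 1 basal gene allowed. Glycolytic genes were positive for 14 of 27, with a median of 0.04. MGHS 3 also had the largest ribosomal share, 4.93% of member UMIs, and the most members with 4 markers. Its part in the ribosomal, oxidative phosphorylation, antioxidant and ketogenesis medians is given by the values without MGHS 3.

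Transport lists had members on both sides. CA1 had 864, 1011 and 2107 TMM CPM in MGHS 1 to 3 and 310, 366 and 228 TMM CPM in MGNS 1 to 3 (2.14 ± 0.45, edgeR adjusted p = 0.198). SLC16A1 had 32.8, 36.9 and 45.2 TMM CPM in MGHS 1 to 3 and 9.80, 8.27 and 18.1 TMM CPM in MGNS 1 to 3 (1.65 on the log2 scale). Both are high in basal nuclei, and both were separate between the groups. SLC26A9, a chloride and bicarbonate transporter, had 3.56, 7.65 and 19.0 TMM CPM in MGHS 1 to 3 and 64.0, 157 and 41.4 TMM CPM in MGNS 1 to 3 (-3.11 on the log2 scale). In all, acid and bicarbonate transport had MGHS above for 4 of 21 and below for 2, and channels above for 3 of 29 and below for 6. Over all genes tested MGHS lay above for 9.46% and below for 8.68%, beside which the counts in this paragraph are to be read. Of the FOXO and autophagy genes 5 of 43 lay above and 6 below, with MAP1LC3A at 132, 152 and 183 TMM CPM in MGHS 1 to 3 and 61.1, 75.1 and 66.4 TMM CPM in MGNS 1 to 3. The MAP kinase list had a median of 0.05 and the interferon list -0.06, the second from -0.61 to 0.68 with an animal left out.

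Markers of 2 stromal cell types had positive medians in the same sums. Pericyte or smooth muscle markers had a median log2 fold change of 1.01 over 9 tested, or 0.54 with markers at 1% of UMIs or more, with MYH11 at 24.3, 99.5 and 28.9 TMM CPM in MGHS 1 to 3 and 9.80, 5.05 and 7.96 TMM CPM in MGNS 1 to 3. Fibroblast markers had a median of 0.47 over 10, or 1.34 with markers at 1% of UMIs or more. Their part in the values above was not tested.

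Whether the group difference in members differed from that in basal nuclei was tested with edgeR as an interaction with the animal as a block. None of 15232 genes passed, a percentage called of 0, with 1113 at an unadjusted p under 0.05, and limma-voom called 0 (1203 at an unadjusted p under 0.05). TNFRSF19, a receptor of the TNF family, had an interaction of -2.19 ± 0.30 (edgeR adjusted p = 0.136), with log2 fold changes of -1.51 in members and 0.79 in basal nuclei. ATP1B1 had an interaction of -2.39 ± 0.34 (edgeR adjusted p = 0.136), with -2.75 in members and -0.35 in basal nuclei, and LOC101122983 one of -3.04 ± 0.43 (edgeR adjusted p = 0.136). With markers at 1% of UMIs or more 6 genes passed, ATP1B1 (-2.69, edgeR adjusted p = 0.0256), LOC101122983, KIAA0825 (-2.91, edgeR adjusted p = 0.0323), TNFRSF19, LOC101106806 and CDK8, of which CDK8 alone was positive. ATP1B1, LOC101122983 and KIAA0825 were thus called in that set of nuclei both within members and against basal nuclei.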

How the data were processed

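Nuclear RNA of 6 libraries was counted in 10x droplets. The authors deposited raw UMI counts per gene and barcode. The file headers name Cell Ranger 8.0.0, the submitters' processing notes 2.1.1, and this was not resolved. Genome build and annotation were not given in the sources used here. Gene numbers were paired with symbols from a table of ARS-UI_Ramb_v3.0, and 26741 of 26741 matched. How reads shared by near-identical or overlapping genes were counted is likewise not given, so genes of such families are less certain.

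Members, gene lists and tests were chosen with earlier results of these data known. UMIs were summed per animal, the replicate. The test was edgeR 4.0.16's robust quasi-likelihood F test in R 4.3.3, after TMM scaling and filterByExpr at 10 counts, with Benjamini-Hochberg adjustment at 0.05. The 14 rule genes stayed in the fit and out of its counts. Alternatives were DESeq2 1.42.0, limma 3.58.1 (voom), other scaling and filters, other limits of the rule, thinning to 2000 UMIs, Scrublet doublets (scanpy 1.11.5, Python 3.11.15) and leaving out each animal. Exact permutation tests over animals used scipy 1.17.1. The fits were tested on simulated data. In MGNS 1, where Scrublet called too few, the highest scores at 0.8% per 1000 nuclei were taken. The UMIs and member nuclei per library, given in the report, set the precision.

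Other keratinocyte nuclei had no PTPRC UMI, at least 3 of 10 keratinocyte identity genes and were no members. Basal nuclei had at least 4 of the 6 basal genes and at most 2 markers. Nuclei with UMIs of both DSC1 and DSG1 or, failing that, of both SLC26A3 and TMPRSS11D had no PTPRC UMI and were neither members nor basal. All 3 of these sets could overlap other keratinocyte nuclei. Named genes without a placeholder symbol were the 20 highest and 10 lowest in members against other keratinocytes with at least 50 CPM, the 12 of smallest p per direction between MGHS and MGNS without overlap, the 4 of smallest p per list and the 3 of smallest p in the interaction. Further list members were named after their values were seen. Some named genes are not reported here.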

Additional observations from a re-analysis of the deposited data

How the results depend on the processing

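The member share kept its direction in every alternative, with a difference of 9.06 to 11.4 percentage points when each animal was left out. Genes called between MGHS and MGNS, 0 with edgeR, were 46 without a filter on low counts, 325 with DESeq2, 3 with at least 3 markers, 4 with at least 5 markers, 1 with at least 1000 genes and 5 with markers at 1% of UMIs or more, the last an alternative chosen after seeing the data. TMPRSS2 was in each of the last 4 sets of calls. The count was 0 with each animal left out. For the interaction with basal nuclei the count of 0 became 63 without the filter, 6 with markers at 1% and 0 to 1 with each animal left out, the 1 being LOC101106806 without MGHS 3. The same replicate numbers did not pair animals (r = 0.0530, -0.0900 and 0.0547), and the fit with the replicate number as a block called 0 genes, with 1344 at an unadjusted p under 0.05, and gave a permutation p of 0.25 for the share. Of 157 named genes refitted, 2979 of 3063 values kept sign and side of the threshold, 76 were newly called and 8 had the opposite sign. With each animal left out, log2 fold changes ran from -2.525 to 0.17 for CEACAM1, -4.455 to 0.11 for HK2, -2.41 to 0.49 for IFI44, -2.41 to 1.48 for IFIT1 and -2.16 to 0.0166 for ISG20, all positive without MGNS 2. They ran from -0.0903 (without MGHS 2) to 0.72 for CLDN4 and from -1.05 to 0.0015 (without MGNS 3) for DSC3, which was 0.39 with the rule at 2000 UMIs. The cause of these changes was not tested. MGNS 1 gave only 156 members, so low genes were least certain there.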

Other observations

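Some further genes of the member nuclei stood out in a single animal or between the groups. CNFN, a protein of the cornified envelope, had 715.9 CPM in MGNS 2 and averaged 170.7 CPM over the 6 libraries. ABCA12 ranged from 38.92 to 780.2 CPM and SLC14A1 from 153.6 to 2049 CPM. HBEGF, an EGF receptor ligand, had 134, 143 and 120 TMM CPM in MGHS 1 to 3 and 254, 203 and 341 TMM CPM in MGNS 1 to 3, a log2 fold change of -1.01 that did not pass in edgeR. The clock gene BMAL1 had a log2 fold change of -1.97 that did not pass in edgeR either.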
